A study of Mus musculus with 6 samples.

Results

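The genes of 7 secreted ADAMTS proteases were followed by RNA sequencing in brachiocephalic arteries with atherosclerotic lesions. They are Adamts1, Adamts2, Adamts4, Adamts5, Adamts9, Adamts10 and Adamts12. They were chosen by name from the 24391 genes of the count table. The rule itself uses no measured value, but the choice was made with earlier results of these data known. The arteries came from 3 Col15a1 -/- mice (KO) and 3 wild type mice (WT), all on a C57BL/6 background and fed a Western diet for 18 weeks. In the series title the deletion is called smooth muscle specific, while the sample labels give the genotype as Col15a1 -/-. The labels name no promoter or Cre driver, no other allele and no age. Each library is 1 animal, and the tissue is labelled as lesion holding a mixture of cell types.

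ADAMTS proteases are zinc metalloproteinases of the extracellular matrix. They are made as inactive precursors, cut by furin-type convertases, and carry thrombospondin type 1 repeats that hold them to the matrix. ADAMTS1, ADAMTS4, ADAMTS5 and ADAMTS9 cleave the large proteoglycans versican and aggrecan, ADAMTS2 removes the amino-terminal propeptide of fibrillar procollagens, ADAMTS10 associates with fibrillin microfibrils, and ADAMTS12 cleaves cartilage oligomeric matrix protein. Versican is a main proteoglycan of the arterial intima, and TIMP-3 is the chief tissue inhibitor of ADAMTS4 and ADAMTS5.

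The enzymes share a zinc-binding active site, and its coding sequence is shown for all 7. Each line is a stretch of 36 bases (12 codons), read 5′ to 3′ from the GENCODE M21 transcript. Capitals mark the codons of the 3 zinc-binding histidines, of the catalytic glutamate after the first of them and of the aspartate after the last.
Adamts1: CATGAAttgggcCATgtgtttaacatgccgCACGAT
Adamts4: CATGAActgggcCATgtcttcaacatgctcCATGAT
Adamts5: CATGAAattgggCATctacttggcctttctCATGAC
Adamts9: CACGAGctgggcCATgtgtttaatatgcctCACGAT
Adamts2: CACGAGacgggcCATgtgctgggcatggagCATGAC
Adamts10: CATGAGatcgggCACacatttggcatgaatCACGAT
Adamts12: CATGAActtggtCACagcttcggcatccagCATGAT
The pattern of the capitals occurred 1 time in each coding sequence. Of the 36 positions, 14 held the same base in all 7 genes. Adamts1 and Adamts9 were the closest pair, with 31 identical bases, and Adamts1 and Adamts4 followed with 30. The pairs of Adamts5 with Adamts9 and of Adamts9 with Adamts12 shared 20, the lowest of the 21 pairs. In all 7 genes an intron interrupts this stretch. It falls after base 10 in Adamts1, Adamts4 and Adamts5 (between exons 3 and 4, 3 and 4, and 2 and 3 in that order) and after base 17 in Adamts2, Adamts9, Adamts10 and Adamts12. In GRCm38 the stretches span chr16:85799188-85799545 for Adamts1, chr1:171253210-171253918 for Adamts4 and chr16:85878012-85887826 for Adamts5, the intron included. The reads were counted on mm9, and gene positions given below are on mm9.

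Library totals ran from 22223584 to 26982005 counts. Col15a1 had 4487, 4542 and 2307 counts in KO 1, KO 2 and KO 3, against 12629, 12111 and 12973 in WT 1, WT 2 and WT 3. The direction thus matches the labels in every library. Reads on the gene remained in KO, at 0.326 times the WT level after scaling to library size, and their source was not tested. KO 3 and WT 2 stood apart from the other libraries in neuronal transcripts. The summed level of 7 sympathetic neuron markers was 3435 CPM (read counts scaled to library size) in KO 3 and 1592 CPM in WT 2, against 93.6 to 148.5 CPM in the other 4. Other libraries differed in other cell types. Summed skeletal muscle markers were 308 CPM in KO 1 and 77.7 CPM in WT 1, against 7.07 to 37.1 CPM in the other 4. Summed smooth muscle markers were 14140 CPM in KO 2 and 5324 to 9444 CPM in the other libraries. Markers of smooth muscle, endothelium, fibroblasts and macrophages were detected in every library and none was at 0, while 5 epithelial markers summed to 12.5 to 20.2 CPM in KO and 12.5 to 13.95 CPM in WT. Summed macrophage markers were 469 to 1058 CPM in KO and 1440 to 1673 CPM in WT. Summed adipocyte markers were 519.5 to 610 CPM in KO and 105.5 to 385 CPM in WT. Nothing in the labels shows a sequencing batch.

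All 7 genes passed the filter on low counts, and none differed between KO and WT at an adjusted p under 0.05 by edgeR's quasi-likelihood test with Benjamini-Hochberg adjustment over 15937 genes. That test called 0% of all genes. At an unadjusted p under 0.05 it gave 0 of the 7 members and 8% of all genes, 3.98% lower and 4.02% higher in KO. DESeq2 likewise called 0 of the 7 at an adjusted p under 0.05, against 0.422% of all genes. At an unadjusted p under 0.05 DESeq2 gave 1 member, Adamts4, and 9.41% of all genes. In 0 of the 7 did the groups lie apart without overlap, against 16.7% of all genes, 8.38% below and 8.33% above. The log2 fold change of KO over WT was negative in 3 of the 7 and in 39.1% of all genes. With 3 libraries per group these tests leave wide intervals, which are given for each gene and do not show that levels were equal. The median log2 fold change of the 7 was 0.079, and that of all genes tested was 0.068.

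**Figure D1:**
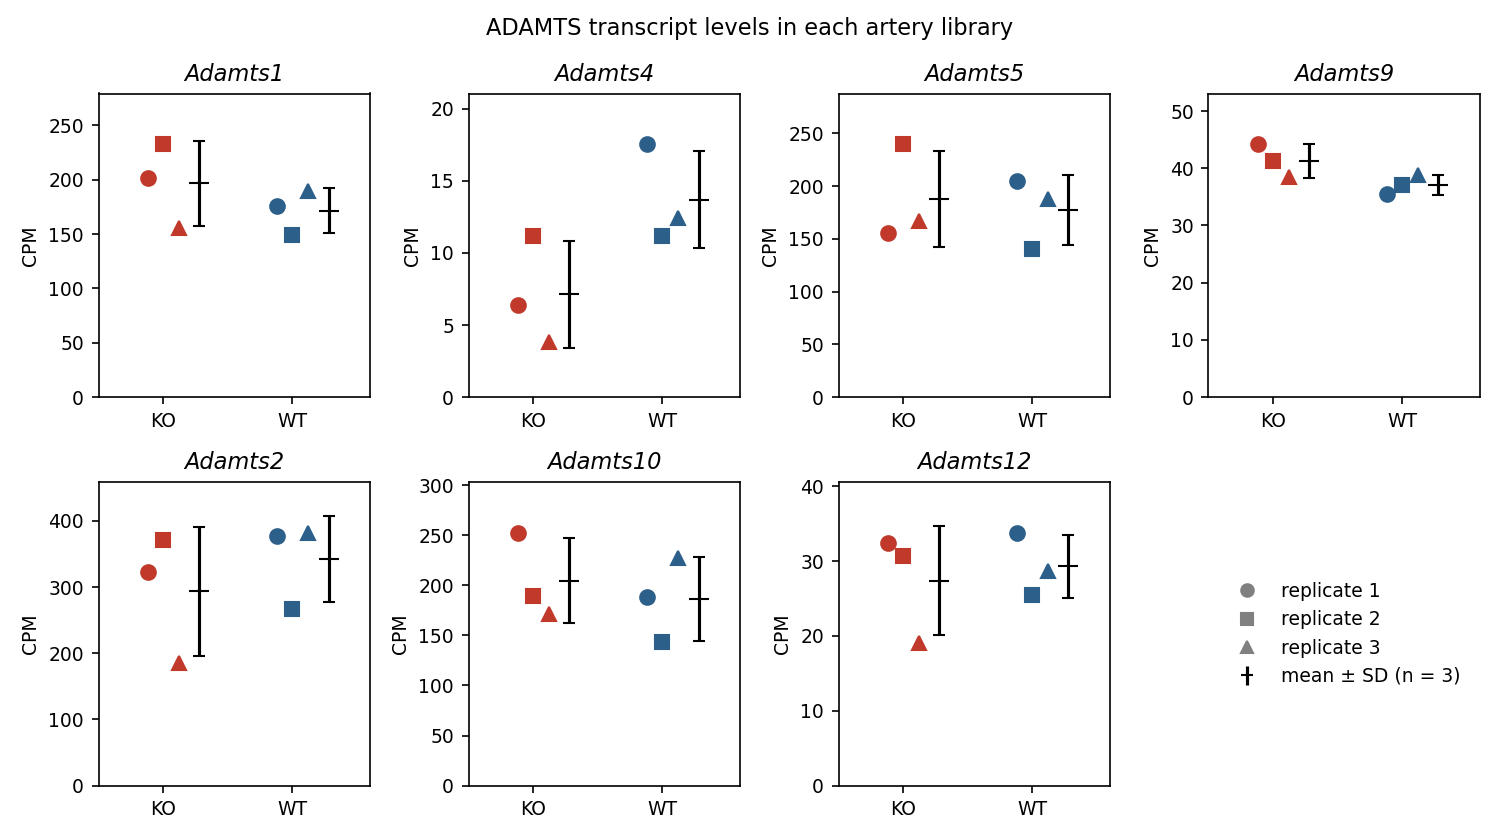
Levels of the 7 ADAMTS genes in CPM (vertical axes, each from 0) in the 3 KO and 3 WT libraries; each point is 1 library, and bars give the mean and SD of 3. Adamts4 has the largest ratio between group means, 7.12 CPM in KO against 13.7 CPM in WT, with KO 2 at the level of WT 2; in the other 6 panels the points of both groups share a range.

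Of the 4 proteoglycanases, Adamts4 had the lowest level and the largest difference between the groups. Adamts4 (chromosome 1, 173180553 to 173190053) had 148, 256 and 97 counts in KO 1, KO 2 and KO 3, against 386, 332 and 321 in WT 1, WT 2 and WT 3. Relative to library size these are 6.38, 11.2 and 3.82 CPM in KO, against 17.5, 11.2 and 12.4 CPM in WT. KO 1 and KO 3 lay below every WT library, and KO 2, at 11.165 CPM, was just above WT 2, at 11.153 CPM, so the groups overlapped by that pair alone. The mean was 7.12 ± 3.73 CPM in KO and 13.7 ± 3.39 CPM in WT (SD, n = 3 each). This is 0.520 times the WT level, with a 95% confidence interval of 0.259 to 1.05, a log2 fold change of -0.94 (SE 0.41) and an edgeR adjusted p of 0.630. It stood at place 1568 of 15937 by unadjusted p (0.0620 in edgeR, 0.0293 in DESeq2). The log2 fold change stayed negative with each library left out, from -1.43 without KO 2 to -0.64 without KO 3. Without both WT 2 and KO 3 it was -0.78.

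Markers of other cell types also had different levels in the 2 groups, although none was called by edgeR or DESeq2. For all 6 macrophage markers every KO library lay below every WT library, against 8.38% of all genes. The macrophage sum was 1058, 1006 and 469 CPM in KO 1, KO 2 and KO 3, against 1440, 1490 and 1673 CPM in WT 1, WT 2 and WT 3. KO 3 was the lowest library for this sum and for Adamts4. The highest KO library was KO 1 for the sum and KO 2 for Adamts4, and the highest WT library was WT 3 and WT 1 in that order. Adipocyte markers lay the other way, with every KO library above every WT library for 4 of 6, against 8.33% of all genes. All 6 chondrocyte markers had a negative log2 fold change, against 39.1% of all genes, with the smallest values in Chad (-0.014) and Matn3 (-0.18). Without KO 3, 4 were lower and 2 higher. The summed level of the 6 was 97.1 to 312 CPM in KO and 318.5 to 466 CPM in WT. This list includes Acan, Col2a1 and Comp, which are also substrate genes described below. None of these markers was at 0. Their part in the Adamts4 values was not tested. In RNA from whole tissue, fewer cells of a type and less RNA per cell cannot be told apart.

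Adamts1, the proteoglycanase first described as an inflammation-induced gene, had the highest level of the 4 per kilobase of exon in every library. In CPM the mean of Adamts1 was above that of Adamts5 in KO (197 against 188) and below it in WT (172 against 178). Adamts1 (chromosome 16, 85794073 to 85803360) was at 202, 233 and 156 CPM in KO 1, KO 2 and KO 3, against 176, 149 and 190 CPM in WT 1, WT 2 and WT 3. KO 2 and KO 1 were the 2 highest libraries, and WT 2 and KO 3 the 2 lowest. The ratio of KO to WT was 1.15 (95% confidence interval 0.841 to 1.56), with an edgeR adjusted p of 0.852.

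Adamts5, a major aggrecanase of mouse cartilage, lies next to Adamts1 on chromosome 16 (85858402 to 85901370). It was at 156, 240 and 167 CPM in KO 1, KO 2 and KO 3, against 205, 140 and 188 CPM in WT 1, WT 2 and WT 3. The highest and the second lowest libraries were both KO, and the group means were 188 ± 45.7 CPM in KO and 178 ± 33.4 CPM in WT (SD, n = 3 each). The ratio was 1.06 (95% confidence interval 0.721 to 1.55), with an edgeR adjusted p of 0.935. Its direction was not fixed by the data: the log2 fold change was -0.14 without KO 2 and 0.19 without WT 1.

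Adamts9, which cleaves versican and is conserved from nematodes to mammals, varied least from library to library. Adamts9 (chromosome 6, 92722693 to 92851435) was at 44.2, 41.3 and 38.4 CPM in KO 1, KO 2 and KO 3, against 35.5, 37.0 and 38.9 CPM in WT 1, WT 2 and WT 3. KO 1 and KO 2 lay above all WT libraries and KO 3 fell between WT 2 and WT 3. The ratio was 1.11 with a 95% confidence interval of 0.932 to 1.33, the narrowest of the 7, and the edgeR adjusted p was 0.764. The table's annotation of Adamts9 holds 30 exons and 6036 bases, whereas the GENCODE M21 transcript used for the sequence above has 40 exons and 8016 bases.

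The procollagen propeptidase Adamts2 had the highest CPM of the 7. Adamts2 (chromosome 11, 50415587 to 50621075) was at 323, 372 and 185 CPM in KO 1, KO 2 and KO 3, against 378, 267 and 382 CPM in WT 1, WT 2 and WT 3. The lowest library of each group was the one with neuronal transcripts, KO 3 and WT 2. The same held for Adamts1, Adamts4, Adamts10 and Adamts12, but not for Adamts5 and Adamts9. The ratio was 0.857 (95% confidence interval 0.522 to 1.405), with an edgeR adjusted p of 0.906, and the log2 fold change was -0.22 with all libraries and 0.020 without KO 3.

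Adamts10 (chromosome 17, 33661141 to 33690727), the microfibril-associated member, was at 253, 190 and 171 CPM in KO 1, KO 2 and KO 3, against 188, 144 and 227 CPM in WT 1, WT 2 and WT 3. Its highest and lowest libraries were KO 1 and WT 2. The ratio was 1.10 (95% confidence interval 0.750 to 1.61, edgeR adjusted p 0.920), and the log2 fold change was -0.11 without KO 1 and 0.25 without KO 3. Adamts12 (chromosome 15, 10994545 to 11276622) was at 32.4, 30.7 and 19.0 CPM in KO 1, KO 2 and KO 3, against 33.8, 25.5 and 28.6 CPM in WT 1, WT 2 and WT 3. KO 3 alone lay below the range of the other 5 libraries. The ratio was 0.935 (95% confidence interval 0.630 to 1.39, edgeR adjusted p 0.925), and the log2 fold change turned to 0.11 without KO 3.

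Levels of different genes were compared after division by exon length, as CPM per kilobase. Adamts10 averaged 50.3 ± 10.5 CPM per kilobase in KO and 45.7 ± 10.3 in WT, Adamts1 40.3 ± 7.95 in KO and 35.1 ± 4.25 in WT, Adamts2 32.3 ± 10.7 in KO and 37.7 ± 7.17 in WT, and Adamts5 23.1 ± 5.63 in KO and 21.9 ± 4.12 in WT (SD, n = 3 each). The ranges of Adamts10 and Adamts1 overlapped in both groups, as did those of Adamts1 and Adamts2. Within a library Adamts10 was above Adamts1 in all but KO 2, and Adamts1 was above Adamts2 in all but WT 1 and WT 3. Adamts10 was above Adamts2 in all 6 libraries, without overlap of their ranges in KO and with overlap in WT. A gap followed: the lowest library for Adamts5 was at 17.3 CPM per kilobase (WT 2), and the highest for Adamts9 was at 7.33 (KO 1). Adamts9, Adamts12 and Adamts4 came in this order in all 6 libraries, with means of 6.84, 4.39 and 1.94 CPM per kilobase in KO and 6.15, 4.70 and 3.73 in WT. The summed length-scaled level of the 7 genes was 159 ± 29.4 in KO and 155 ± 25.8 in WT. Adamts4 supplied 1.18 ± 0.455% of that sum in KO and 2.41 ± 0.478% in WT.

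**Figure D2:**
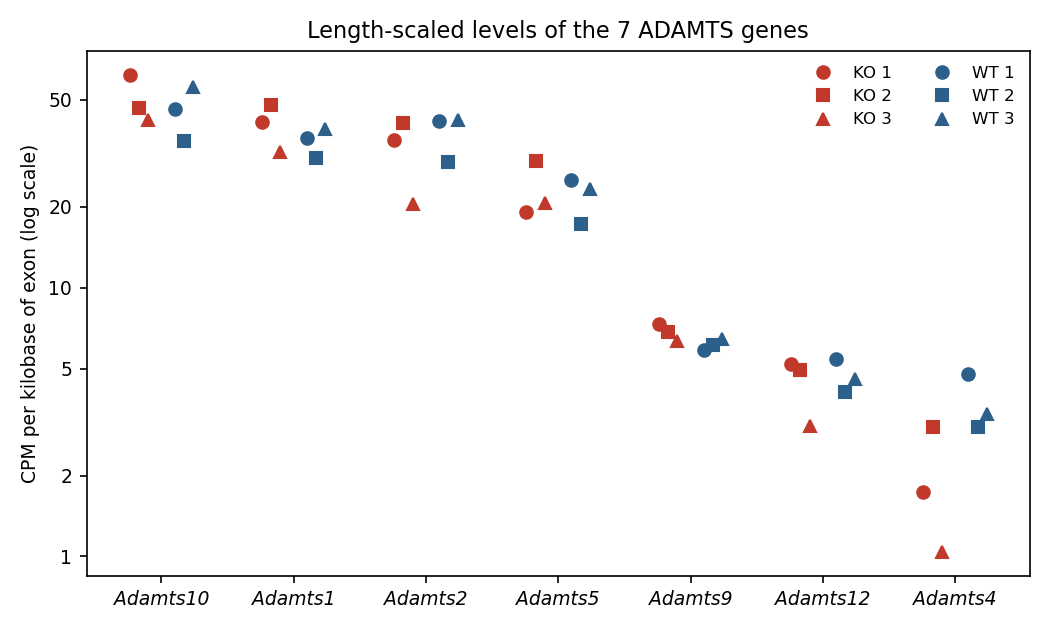
CPM per kilobase of exon on a log axis for the 7 genes, with KO libraries in red left of WT libraries in blue and a marker shape per replicate number. Adamts10, Adamts1, Adamts2 and Adamts5 lie at 17.3 or above and Adamts9, Adamts12 and Adamts4 at 7.33 or below; the lowest point is KO 3 for Adamts4, at 1.04.

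A ratio of 2 members within a library does not depend on library size. Of the 21 pairs, 6 had ratios that did not overlap between the groups (28.6%), against 17.2% for ratios of all tested genes to the same members. The pairs share genes, and 5 of the 6 involved Adamts4. The ratio of Adamts4 to Adamts5 (CPM per kilobase) was 0.0904, 0.103 and 0.0505 in KO 1, KO 2 and KO 3, against 0.189, 0.176 and 0.146 in WT 1, WT 2 and WT 3. Each KO ratio was below each WT ratio, including that of KO 2, whose Adamts4 CPM was just above that of WT 2. KO 2 also had the highest Adamts5 level of all libraries, at 240 CPM. The ratio of Adamts4 to Adamts10 did overlap between the groups, at 0.0652 in KO 2 and 0.0605 in WT 3. The pair without Adamts4 was Adamts1 over Adamts2, at 1.16, 1.16 and 1.56 in KO, against 0.868, 1.035 and 0.922 in WT. Adamts1 thus exceeded Adamts2 per kilobase in all 3 KO libraries and in WT 2. No p-value is given, because an exact permutation test of 3 against 3 cannot go below 0.10.

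The genes whose pattern over the 6 libraries was closest to each member were found by the root mean square difference of mean-centred log2 CPM, among 10035 named genes with a mean of at least 10 CPM. For Adamts4 the closest gene was Acan, which encodes aggrecan, the proteoglycan whose cleavage gave ADAMTS4 its name of aggrecanase. The difference was 0.058 log2 units, while the next gene, Serpina3n, was at 0.18. Acan was at 41.5, 71.9 and 24.2 CPM in KO 1, KO 2 and KO 3, against 113, 78.9 and 78.2 CPM in WT 1, WT 2 and WT 3. In each library Acan CPM was 6.31 to 7.08 times Adamts4 CPM, with means of 6.43 ± 0.0925 in KO and 6.60 ± 0.416 in WT. Acan had a log2 fold change of -0.97 (SE 0.40) and an edgeR adjusted p of 0.617. The likeness is a description of 6 libraries, selected as the smallest of many, and has no test.

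**Figure D3:**
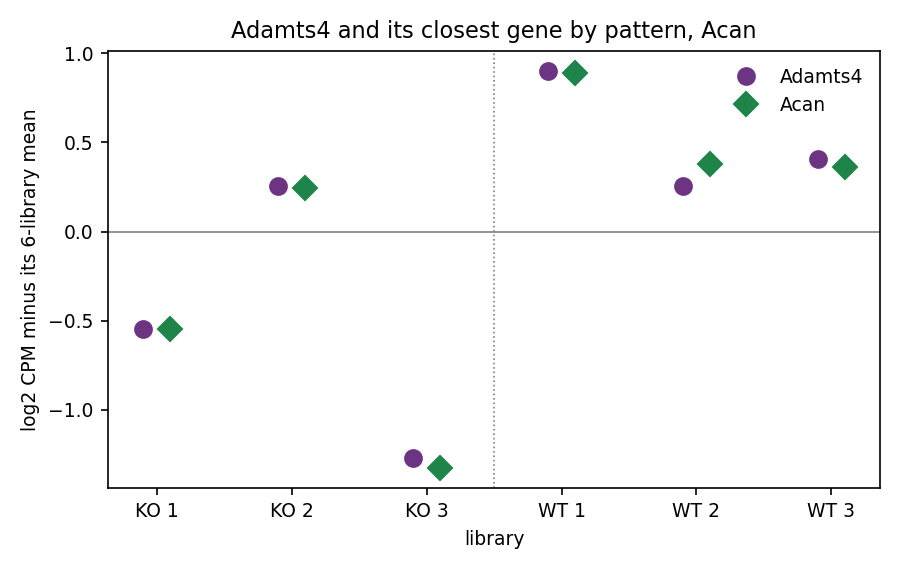
Log2 CPM of Adamts4 (circles) and Acan (diamonds) in each library, minus the mean of that gene over the 6 libraries; KO libraries are left of the dotted line and WT libraries right of it. Both genes are lowest in KO 3 and highest in WT 1, and their root mean square difference is 0.058 log2 units.

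The other members had closest genes with the following differences in log2 units. Adamts2 was nearest to Hspg2, which encodes the basement membrane proteoglycan perlecan (0.045), and to Ror1 (0.058). Adamts1 was nearest to N6amt1 (0.036) and Vps37b (0.051), Adamts5 to Spsb1 (0.052) and Rnaseh2c (0.082), and Adamts10 to Leng8 (0.044) and Ppox (0.048). Adamts12 was nearest to Glb1l (0.049) and Cacna1d (0.060), and Adamts9, the flattest profile, to Rprd1b (0.021) and Zfp276 (0.022). Among the members themselves Adamts2 and Adamts12 were closest (0.16) and Adamts4 and Adamts10 farthest apart (0.77).

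The rest of the family showed no called difference either. The table holds 12 further ADAMTS genes, of which 9 passed the filter, 3 higher and 6 lower in KO by log2 fold change (median -0.14), and 0 were called by edgeR or DESeq2. Adamts15, another versican-cleaving enzyme, averaged 104 ± 35.7 CPM in KO and 97.0 ± 30.1 CPM in WT (SD, n = 3 each). Adamts7, which like ADAMTS12 cleaves cartilage oligomeric matrix protein, averaged 9.49 ± 2.502 CPM in KO and 13.6 ± 3.75 CPM in WT (log2 fold change -0.52, edgeR adjusted p 0.689). Adamts20 had 188 counts in KO 3 and 170 in WT 2, against 43 to 62 in the other 4 libraries, so it was high in the libraries with neuronal transcripts. Adamts13, which cleaves von Willebrand factor, had 0 to 7 counts per library and did not pass the filter, nor did Adamts18 and Adamts19.

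Genes of the ADAMTS-like proteins, which share the ancillary domains but lack the protease, were also tested. Of the 5 ADAMTS-like genes and Papln, which encodes papilin, 4 were higher and 2 lower in KO by log2 fold change (median 0.30), and 0 were called by edgeR or DESeq2. In 2 of the 6, Adamtsl2 and Papln, all KO libraries lay above all WT libraries, against 8.33% of all genes. Adamtsl2 was at 30.1 ± 1.30 CPM in KO and 19.8 ± 8.64 CPM in WT (log2 fold change 0.60, SE 0.35, edgeR adjusted p 0.709). Papln was at 3.88, 3.10 and 7.53 CPM in KO 1, KO 2 and KO 3, against 1.82, 2.69 and 2.43 CPM in WT 1, WT 2 and WT 3. Its edgeR adjusted p was 0.599, and its highest library, KO 3, was one of those with neuronal transcripts.

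**Figure D4:**
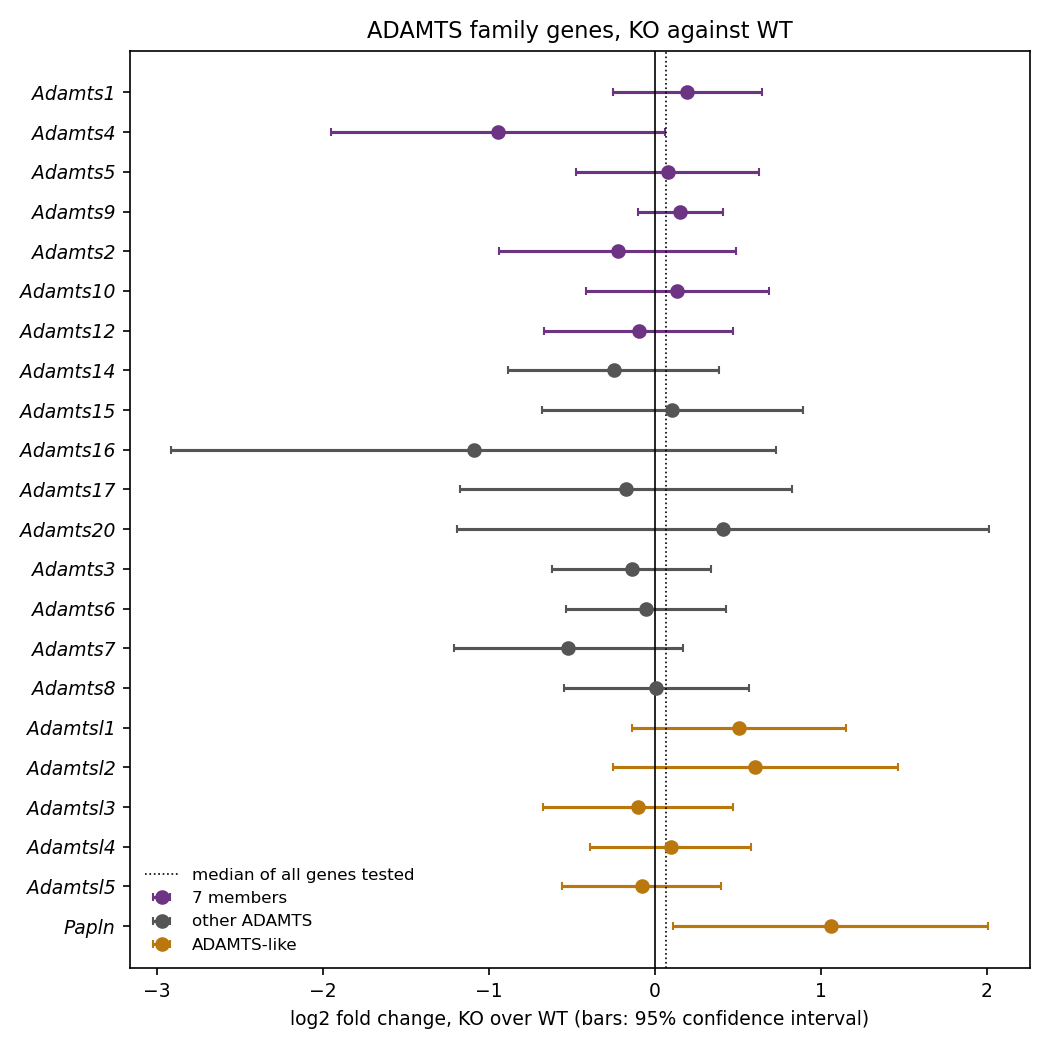
Log2 fold change of KO over WT (horizontal axis) with its 95% confidence interval for the 7 members (purple), 9 other ADAMTS genes (grey) and 6 ADAMTS-like genes (orange); the dotted line is the median of all genes tested, 0.068. Among the members the interval of Adamts4 reaches furthest below 0, to -1.95, and ends at 0.065; of the genes drawn only Papln has an interval that does not reach 0.

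Genes of substrates and of their partners were likewise compared between KO and WT. Of 12 genes for proteoglycan substrates and their hyaluronan partners, 11 were tested, 6 with positive and 5 with negative values (median 0.12), and 0 were called by edgeR or DESeq2. Vcan, the gene of versican, averaged 271 ± 79.3 CPM in KO and 329 ± 81.9 CPM in WT (SD, n = 3 each, edgeR adjusted p 0.864). Has1, a hyaluronan synthase gene, was at 5.82, 5.93 and 4.93 CPM in KO, against 9.59, 10.6 and 7.99 CPM in WT, with no overlap and an edgeR adjusted p of 0.587. Cd44, the gene of a hyaluronan receptor, did not overlap between the groups either (log2 fold change -0.82, edgeR adjusted p 0.644). In 3 of the 11 all KO libraries lay below all WT libraries, against 8.38% of all genes. With 1 library left out the list median ran from -0.485 (without KO 3) to 0.089 (without WT 2), so its sign was not stable.

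The list of procollagens and other matrix substrates had 16 genes, all tested, and 15 had a negative log2 fold change. Its median was -0.57 with all libraries, -0.395 without KO 3, -0.858 without KO 2 and -0.424 without WT 2 and KO 3, and 0 genes were called by edgeR or DESeq2. In 8 of the 16 the KO libraries lay below all WT libraries, against 8.38% of all genes. Fn1, the gene of fibronectin, averaged 5058 ± 2689 CPM in KO and 10706 ± 907 CPM in WT (SD, n = 3 each; log2 fold change -1.08, edgeR adjusted p 0.661). Thbs2, the gene of thrombospondin 2, had a log2 fold change of -0.61 (edgeR adjusted p 0.620), and Col2a1, the cartilage collagen gene, one of -1.69 (edgeR adjusted p 0.668). Comp, a substrate of ADAMTS12, was at 76.0, 143 and 55.2 CPM in KO 1, KO 2 and KO 3, against 162, 126 and 152 CPM in WT 1, WT 2 and WT 3, so that KO 2 lay within the WT range.

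Partners in procollagen processing were 7 genes, 3 with positive and 4 with negative values (median -0.14), and 0 were called by edgeR or DESeq2. Bmp1, the gene of the carboxyl-terminal propeptidase, averaged 160 ± 42.4 CPM in KO and 199 ± 24.8 CPM in WT (edgeR adjusted p 0.790), and the other ADAMTS propeptidase genes Adamts3 and Adamts14 stayed under 10 CPM in every library. Of 15 inhibitors, activators, glycosylation enzymes and clearance receptors tested, 7 had positive and 8 negative values (median -0.083). Of these edgeR called 0 and DESeq2 called 1, against 0.422% of all genes in DESeq2. The called gene was the inhibitor gene Timp4, higher in KO (DESeq2 adjusted p 8.44e-07, edgeR adjusted p 0.587). Timp4 averaged 11.7 ± 2.03 CPM in KO and 3.71 ± 0.628 CPM in WT, and all KO libraries lay above all WT libraries, against 8.33% of all genes. Timp3 averaged 1457 ± 302 CPM in KO and 1544 ± 363 CPM in WT, with an edgeR adjusted p of 0.937. Furin, the gene of an activating convertase, was lower in each KO library, at 110, 98.5 and 68.5 CPM in KO, against 115, 123 and 137 CPM in WT (log2 fold change -0.44, edgeR adjusted p 0.632). It was 1 of the 15 with all KO libraries below all WT libraries, near the share of 8.38% of all genes. Lrp1, the gene of an endocytic receptor that clears ADAMTS4 and ADAMTS5, had a log2 fold change of -0.43 (edgeR adjusted p 0.785).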

How the data were processed

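RNA of 3 KO and 3 WT arteries was analysed from raw counts per gene, deposited by the authors without normalization. Per the file headers, featureCounts 1.4.6-p4 counted reads over exons of a UCSC mm9 annotation, summed by gene name, with no option set for strand or multi-mapping reads. The submitters' processing notes also list the aligner STAR with the version 3.0, and CASAVA, DESeq2 and Subread with none. Reads shared by exons of several genes (0.347% to 0.448% of alignments) and multi-mapping reads were not counted; 32.6% to 36.9% of alignments were assigned, per the deposited counting summary. No other gene's exons overlapped those of the 7 members.

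From these counts, the difference of KO from WT was tested by the quasi-likelihood fit of edgeR 4.0.16 under R 4.3.3 (TMM, filterByExpr with a minimum count of 10, two-sided), adjusted over 15937 genes by Benjamini-Hochberg at 0.05, and tested on simulated data first. CPM are TMM-scaled. Standard errors came from the F statistic and 95% intervals from its degrees of freedom. Log2 CPM used a prior count of 2. Alternatives were DESeq2 1.42.0, limma-voom (limma 3.58.1), other scalings, filters and thresholds, a replicate block, and libraries left out. Member counts ran from 97 (Adamts4) to 9900 (Adamts2) per library, which sets their counting precision. The p-values measure the spread between 3 animals per group.

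Groups and replicate numbers came from the titles; no library pair agreed within sampling noise. Members, lists and alternatives were chosen with earlier results of these data known. Named genes were the members, the rest of the family, up to 4 genes per list by unadjusted p, and the 2 genes closest in pattern to each member; Vcan, Timp3 and Lrp1 were named outside that rule. No protein sequences were used here.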

Additional observations from a re-analysis of the deposited data

How the results depend on the processing

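The count of called members was 0 under all 18 alternatives run. The count of genes called was 0 in edgeR under every scaling, filter and threshold and ran from 0 to 0 when single libraries were dropped. Limma-voom also gave 0, DESeq2 gave 63, of which 10 tied at an adjusted p of 0.04999984 and 53 lay below it, and 1 gene was called without WT 2 and KO 3 together. The number of members with a negative log2 fold change, 3 of 7, ran from 1 (without KO 3) to 5 (without WT 2) with a library left out. Adamts1, Adamts4 and Adamts9 kept their direction in all 18. Leaving out 1 library turned the sign of Adamts10 (-0.11 without KO 1 to 0.25), Adamts12 (-0.30 to 0.11 without KO 3), Adamts2 (-0.43 to 0.020 without KO 3) and Adamts5 (-0.14 without KO 2 to 0.19). Without WT 2 and KO 3 together Adamts12 was at 0.0085 and Adamts5 at -2.9e-05, and with sample quality weights Adamts12 was at 0.017; the cause was not tested. Adamts4 passed an unadjusted p of 0.05 in DESeq2 (0.0293), in limma-voom with and without weights, without KO 2 (0.00853) and without WT 2 and KO 3 (0.0279). The adjusted p of Adamts4 ran from 0.416 (DESeq2) to 0.9999. Col15a1 was called in DESeq2 alone (log2 fold change -1.64, adjusted p 0.00219).

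Deviations of same-numbered libraries from their group means had correlations of 0.426, -0.677 and -0.583. These cannot decide whether animals were paired, because KO 3 and WT 2, both with neuronal transcripts, dominate the deviations (correlation 0.768 with each other). The labels do not say that the numbers pair animals, and they were not taken to do so. The replicate block gave 0 called genes, and Adamts4 had a log2 fold change of -1.06 with an adjusted p of 0.9996. With 3 libraries a group, the 95% interval of Adamts4 holds ratios from 0.259 to 1.05.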
